A study of Mus musculus with 20 samples.

Results

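Ccdc8, Cul7 and Obsl1 encode the subunits of the 3M complex, and their messenger RNA was followed in the livers of mice kept under gamma rays for more than a year. The members are all array probe sets whose single gene symbol was one of these 3 names. They numbered 7 of the 45101 probe sets of the table, of which 34945 carried 1 gene symbol (18193 genes). Ccdc8 and Cul7 had 1 probe set each and Obsl1 had 5. Ccdc8 had been singled out in earlier work on these data by its difference between irradiated mice and unirradiated controls. Values against the controls are therefore given as a description with no test, and tests are kept to comparisons that do not use that difference.

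CUL7 is a cullin, the scaffold of an E3 ubiquitin ligase that works with the F-box protein FBXW8, the adaptor SKP1 and the RING protein RBX1. OBSL1 is an obscurin-like cytoskeletal adaptor, and CCDC8 is a coiled-coil protein that links the assembly to membranes and binds ankyrin-repeat proteins. In humans, loss of any of the 3 genes causes 3M syndrome, a disorder of short stature, and in cultured human cells the complex keeps microtubules and chromosome segregation intact.

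Total RNA from whole livers of male C57BL/6J mice was hybridized to 20 Affymetrix arrays. In experiment 2, mice received 137Cs gamma rays for 401 days at 0.05, 1 or 20.0 mGy per day, which gave cumulative doses of 20.0, 401 and 8015 mGy. In experiment 1, mice that were 8 weeks old at the start were irradiated for 485 days (22 h per day) at 0.042, 0.858 or 16.6 mGy per day, for 20.6, 416 and 8030 mGy. The 3 dose-rates of each experiment are the low, medium and high levels, with 3 single-mouse arrays in each of the 6 irradiated groups. The unirradiated control of each experiment was 1 array of pooled RNA, from 6 mice in experiment 2 and from 3 mice in experiment 1, so the controls had no spread between animals of their own. The age at the start of experiment 2 is not stated in the labels.

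Values are MAS5 signal intensities as deposited, on a linear scale with no fixed unit. The 5 hepatocyte markers (Alb, Apoa1, Ttr, Cps1 and Serpina1c) all lay above the array medians, as fits the liver label. Array medians ran from 81.3 to 104.8. Each signal is read against the median of its own array, since detection calls were not used and a signal under the median was not shown to be above background. Differences are in log2(signal + 7.11), a scale that understates the change of dim probe sets. The added 7.11 is the 10th percentile of the table.

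The promoters of Ccdc8 and Cul7, the members with signals above the array medians, are shown to place the genes, from RefSeq on GRCm38.p6, 250 bases before to 50 after the start. The Ccdc8 window lies at chr7:16993652-16993951 on the plus strand and the Cul7 window at chr17:46650088-46650387 on the plus strand. Capitals mark matches to the motifs searched on both strands.
Ccdc8 promoter: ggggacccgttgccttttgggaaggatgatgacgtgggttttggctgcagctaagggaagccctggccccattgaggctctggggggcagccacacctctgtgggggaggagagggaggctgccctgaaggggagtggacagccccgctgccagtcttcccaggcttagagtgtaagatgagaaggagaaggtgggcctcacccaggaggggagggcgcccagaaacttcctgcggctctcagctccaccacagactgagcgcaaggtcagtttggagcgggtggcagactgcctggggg
Cul7 promoter: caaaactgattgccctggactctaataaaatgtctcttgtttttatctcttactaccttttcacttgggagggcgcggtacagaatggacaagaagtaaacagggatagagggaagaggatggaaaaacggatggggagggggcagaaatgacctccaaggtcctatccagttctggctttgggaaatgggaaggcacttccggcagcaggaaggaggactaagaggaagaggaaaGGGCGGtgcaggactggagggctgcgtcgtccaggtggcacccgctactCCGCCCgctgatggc
The first motif searched was the E-box with the letters CACGTG, held by 7.15% of 32851 mouse promoters of the same length. The GC box, with the letters GGGCGG, was held by 35.66% of them. The letters CCAAT, bound by the factor NF-Y, were held by 37.41%, and the core of the TATA box, with the letters TATAAA, by 13.62%. The letters AGAACA, a hexamer bound by the glucocorticoid receptor, were held by 18.97%. The Ccdc8 window held 0 matches. The Cul7 window held 2 GC boxes, with first bases at -14 and 35 relative to the start. The Obsl1 window (chr1:75506403-75506702, minus strand) held 1 match to CCAAT at -158. The windows held 7 CpG dinucleotides at Ccdc8, 10 at Cul7 and 8 at Obsl1.

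Ccdc8, the membrane-linked coiled-coil subunit, was brighter in every irradiated mouse than in the control pool of its experiment. Its 1 probe set, 1444761_at, was built on an expressed sequence tag. In experiment 2, the signal was 114, 129 and 139 in the low, 118, 136 and 105 in the medium and 177, 129.9 and 109 in the high dose-rate mice, against 35.8 in the control pool. In experiment 1, it was 96.1, 223 and 97.8 in the low, 108, 166 and 116 in the medium and 125, 93.9 and 92.3 in the high dose-rate mice, against 13.9 in the control pool. The irradiated mice and the pools did not overlap in either experiment, and all of the dose-rate groups overlapped each other. Whole-liver RNA cannot tell fewer cells of a type from less RNA per cell.

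**Figure D1:**
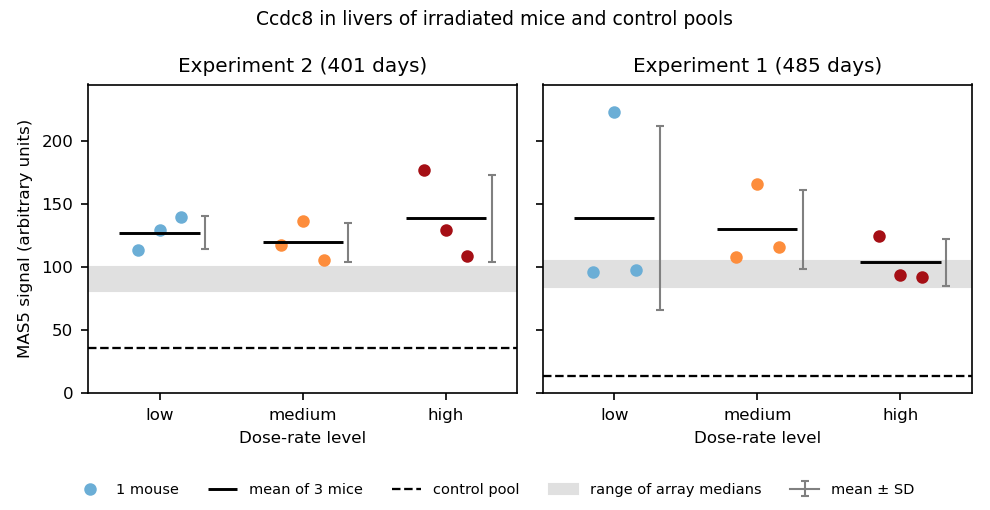
MAS5 signal of Ccdc8 (probe set 1444761_at, linear axis from 0) by dose-rate level, with experiment 2 on the left and experiment 1 on the right. Points are single mice, black bars are means of 3 mice with their SD beside them, the dashed line is the control pool and the grey band is the range of array medians. All 18 mice lie above the dashed line, which stands at 35.8 in experiment 2 and 13.9 in experiment 1.

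The mice and the pools also lay on opposite sides of the array median. The Ccdc8 signal was above the median of its array in 18 of 18 irradiated mice and in 0 of 2 pools. On its own array its percentile among all probe sets was 50.5 to 67.1 in the mice, against 31.99 in the pool of experiment 2 and 17.5 in the pool of experiment 1. As a ratio to the array median, the mice lay between 1.02 and 2.13, against 0.437 and 0.163 in the pools of experiments 2 and 1. Both pool signals thus lay where the arrays were not shown to measure the gene above background, and the size of the difference rests on them.

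The difference of each mouse from its pool averaged 1.65 ± 0.22 in experiment 2 and 2.58 ± 0.41 in experiment 1 (log2, SD, n = 9 mice each). The 3 dose-rates share these pools. Over both experiments the difference averaged 2.17 ± 0.71 at the low, 2.12 ± 0.66 at the medium and 2.06 ± 0.44 at the high dose-rate (log2, SD, n = 6 mice each). The median over all probe sets was 0.019 at the low, 0.019 at the medium and 0.025 at the high dose-rate. Without the pool of experiment 1, the 3 averages were 1.64, 1.56 and 1.74, and without the pool of experiment 2 they were 2.69, 2.68 and 2.39. Of 45037 probe sets, 1.17% were above the pool in all 18 mice and 0.755% were below it in all 18. Of the 7 members, Ccdc8 alone was above the pool in all 18 mice and 0 were below it in all 18, and nothing is read from that count because Ccdc8 was chosen on it.

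Array properties and marker lists were set beside Ccdc8. The mouse with the highest Ccdc8 signal also had the highest array median in both experiments (99.99 in experiment 2 and 104.8 in experiment 1). The array medians of the pools (81.9 in experiment 2 and 85.4 in experiment 1) lay among those of the mice. The ratio of 3′ to 5′ Gapdh control probe sets, which reflects RNA integrity, ran from 0.871 to 0.993 in mice against 0.916 in the pool of experiment 2. It was 0.701 to 0.769 in mice against 0.69 in the pool of experiment 1. Of 11 cell type lists, the summed signal of the pool lay outside that of the mice for 0 in experiment 2 and for 2 in experiment 1. The T cell markers summed to 138 to 333 in mice against 141 in the pool of experiment 2, and to 159.8 to 563 in mice against 121 in the pool of experiment 1. The B cell markers summed to 216 to 797 in mice against 255 in the pool of experiment 2, and to 253 to 405 in mice against 231 in the pool of experiment 1. None of the 4 T cell markers had a mean above the array medians, and 2 of the 3 measured B cell markers did. The part of these values in the Ccdc8 difference was not tested.

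Ccdc8 varied little among mice of 1 group. The SD within groups was 0.35 on the log2 scale, against a median of 0.50 for 3768 probe sets of like signal. Mouse 2 of the low dose-rate group of experiment 1, at 223, was far above its 2 group mates. The means of the groups in experiment 2 were 127 ± 12.9 at the low, 119.8 ± 15.6 at the medium and 139 ± 34.7 at the high dose-rate (SD, n = 3 each). In experiment 1 they were 139 ± 73.0 at the low, 130.0 ± 31.3 at the medium and 104 ± 18.5 at the high dose-rate (SD, n = 3 each). Neighbours in these orders did not differ beyond their spread, and the order of the levels was not shared by the experiments.

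The dose-rate contrasts ask whether the members followed the dose-rate among irradiated mice. Limma, fitted across 45037 probe sets with experiment as a term, found 0 of the 7 members past an adjusted p of 0.05 in any of the 3 contrasts between dose-rates. The p-values measure the spread between these arrays, and the number of arrays limits the precision. The control pools were a level of the fit, so they enter that spread and the experiment term. Over all probe sets the same rule called 0.00444% for high against low, 0.0% for medium against low and 0.0% for high against medium. At an unadjusted p under 0.05 it called 7.91%, 6.34% and 4.44%.

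For Ccdc8 the high dose-rate minus the low was -0.11 ± 0.26 (log2, SE), with a 95% interval from -0.64 to 0.43 and a limma adjusted p of 0.958. Medium minus low was -0.048, with an interval from -0.59 to 0.49, and high minus medium was -0.057, from -0.59 to 0.48. These intervals do not show that the levels acted alike. Without mouse 2 of the low dose-rate group of experiment 1, high minus low was 0.079 and medium minus low 0.14. High minus medium was 0.049 without mouse 2 of the medium dose-rate group of experiment 1, so that the signs rested on single mice. Within experiment 2, high minus low was 0.093, and within experiment 1 it was -0.30, so the sign differed between experiments. The difference between the experiments in this contrast was 0.40, with an interval from -0.68 to 1.47 and a limma adjusted p of 0.944. An exact permutation of dose-rate labels within experiments, two-sided, gave p between 0.71 and 0.8 for the 3 Ccdc8 contrasts, where 0.005 is the smallest p possible.

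Cul7, the cullin scaffold, was the brightest member and was the 1 member above the median on all 20 arrays. Its probe set 1417039_a_at averaged 291 and its percentile on the arrays ran from 64.3 to 75.4. In experiment 2 it measured 317, 395 and 321 in the low, 271, 359.8 and 367 in the medium and 280.5, 304 and 276 in the high dose-rate mice, against 399.5 in the pool. In experiment 1 it measured 216, 229 and 291 in the low, 190.1, 215 and 239 in the medium and 330.2, 317 and 198 in the high dose-rate mice, against 306 in the pool. The signal was below the pool in 16 of 18 mice, the exceptions being mice 1 and 2 of the high dose-rate group of experiment 1.

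**Figure D2:**
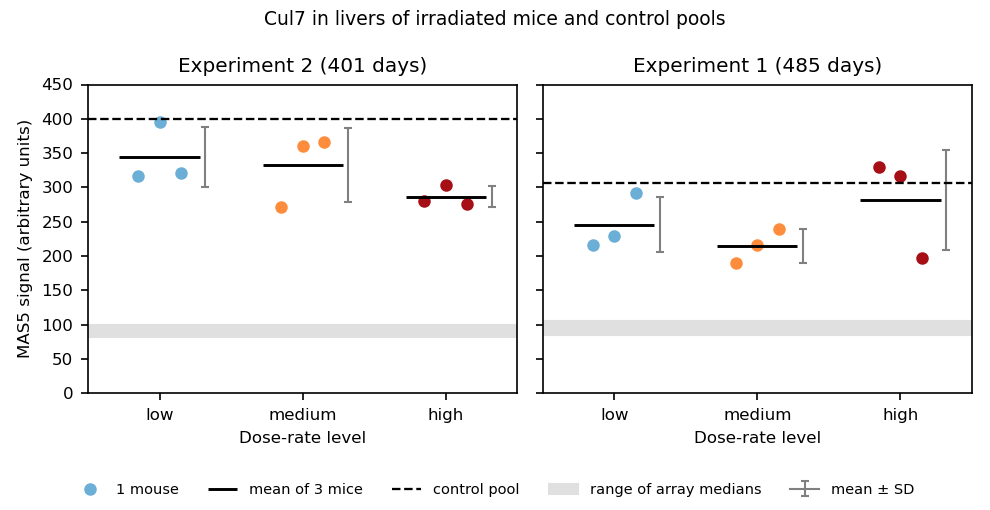
MAS5 signal of Cul7 (probe set 1417039_a_at, linear axis from 0) by dose-rate level, with experiment 2 on the left and experiment 1 on the right. Points are single mice, black bars are means of 3 mice with their SD beside them, the dashed line is the control pool and the grey band is the range of array medians. All 9 mice of experiment 2 lie below the pool at 399.5, and 7 of 9 mice of experiment 1 lie below the pool at 306.

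The Cul7 difference from the pool averaged -0.32 ± 0.19 in experiment 2 and -0.33 ± 0.29 in experiment 1 (log2, SD, n = 9 mice each). At the low dose-rate it averaged -0.27 ± 0.19, at the medium -0.39 ± 0.22 and at the high -0.31 ± 0.31 (log2, SD, n = 6 mice each). It was thus opposite in sign to that of Ccdc8 and smaller. Of all probe sets, 7.34% were below the pool in all 9 mice of experiment 2, as Cul7 was. At the low dose-rate all 6 mice were below, as were 4.7% of probe sets, and at the medium dose-rate all 6 were below, as were 6.38%.

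Dose-rate contrasts of Cul7 were small. High minus low was -0.042 (interval -0.36 to 0.28), medium minus low -0.12 (-0.44 to 0.20) and high minus medium 0.076 (-0.24 to 0.40), each with an SE of 0.16 on the log2 scale. The limma adjusted p-values were 0.974, 0.939 and 1.00. In experiment 2 the 3 high dose-rate mice (276 to 304) all lay below the 3 low dose-rate mice (317 to 395), a difference of -0.25. In experiment 1 the high and low dose-rate mice overlapped and the difference was 0.17. The limma test of the difference between experiments gave -0.42 ± 0.31 (log2, SE) with an adjusted p of 0.879.

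Cul7 was the 1 of 7 members past the threshold between experiments. It was higher in experiment 2 than in experiment 1 at equal level, by 0.38 ± 0.12 (log2, SE), with an interval from 0.13 to 0.63 and a limma adjusted p of 0.024. Over all probe sets 20.6% passed in either direction, 11.1% higher and 9.42% lower in experiment 2, so 1 call among 7 members is near that background. Within the low and within the medium level, the mice of experiment 2 lay above those of experiment 1 with no overlap. The high dose-rate mice overlapped. The call was lost with quantile normalization, where the difference was 0.33 and the adjusted p 0.063. It was also lost without mouse 2 of the low (0.35) or mouse 3 of the medium (0.35) dose-rate group of experiment 2. The experiments differed at least in duration, dose-rate and the Gapdh 3′ to 5′ ratio. That ratio was 0.871 to 0.993 over all arrays of experiment 2 and 0.69 to 0.769 over those of experiment 1. These differences, and any in hybridization, cannot be told apart. For Ccdc8 the same contrast was 0.18 ± 0.20 (log2, SE), with an interval from -0.23 to 0.60 and an adjusted p of 0.597. The pools enter this contrast, and on the irradiated arrays alone it was 0.090.

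**Figure D3:**
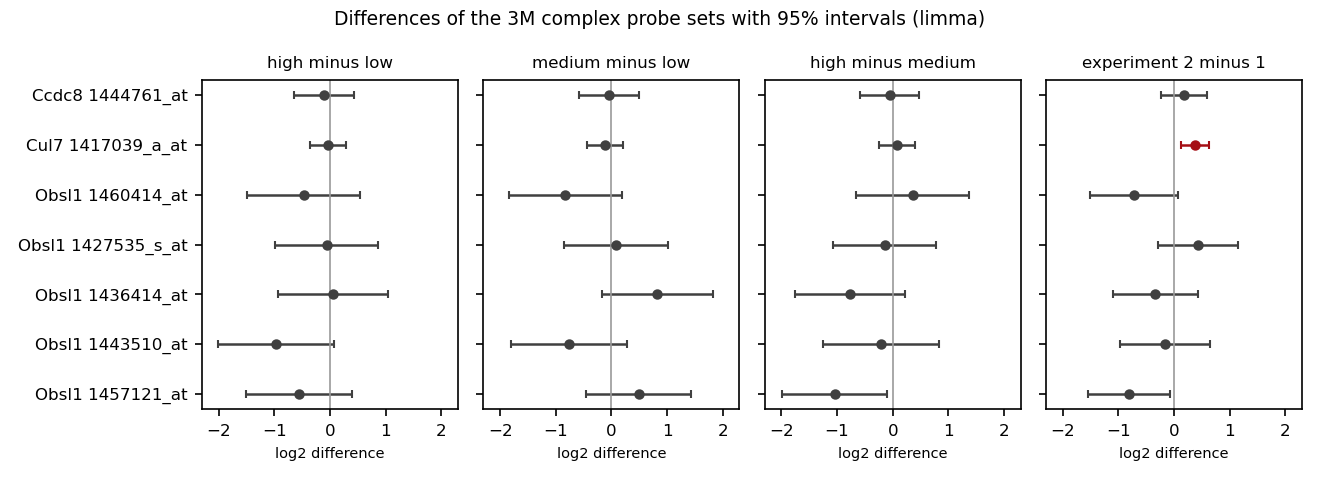
Differences between dose-rate levels and between experiments for the 7 member probe sets (log2 scale). Points are limma estimates over 20 arrays, bars are 95% intervals, the grey line is no difference and red marks an adjusted p under 0.05. Cul7 in experiment 2 minus experiment 1 (0.38) is the 1 red point.

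Obsl1, the cytoskeletal adaptor, was dim on all 5 of its probe sets, whose mean signals ran from 30.4 (1436414_at) to 64.4 (1460414_at). They lay above the median on 7 of 20 arrays for 1460414_at, 6 for 1427535_s_at, 2 for 1443510_at, 1 for 1457121_at and 0 for 1436414_at. The arrays above the median were all of irradiated mice, which made up 18 of the 20 arrays. A filter at the median of probe set means kept 2 of the 7 members, Ccdc8 and Cul7.

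The main Obsl1 probe set, 1460414_at, is the brightest outside the _s_at type, whose probes can match several transcripts. In experiment 2 it measured 53.5, 88.3 and 48.9 in the low, 22.3, 7.16 and 19.8 in the medium and 109, 71.7 and 21.8 in the high dose-rate mice, against 48.2 in the pool. In experiment 1 it measured 75.3, 121 and 91.2 in the low, 106, 80.1 and 87.8 in the medium and 102, 10.9 and 83.1 in the high dose-rate mice, against 39.4 in the pool. The 3 medium dose-rate mice lay below the pool and below all low dose-rate mice in experiment 2, and above the pool in experiment 1. All 3 medium dose-rate mice lay below the pool for 22.7% of all probe sets in experiment 2 and above it for 26.8% in experiment 1. At the low dose-rate this probe set and 1427535_s_at were above the pool in all 6 mice, as were 6.66% of all probe sets. Its difference from the pool averaged -0.26 ± 1.00 in experiment 2 and 0.82 ± 0.84 in experiment 1 (log2, SD, n = 9 mice each).

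The second Obsl1 probe set, 1427535_s_at, was above the pool in 16 of 18 mice, by 0.82 ± 0.60 in experiment 2 and 1.403 ± 0.89 in experiment 1 (log2, SD, n = 9 mice each). In experiment 2 it measured 47.0 to 55.7 in the low, 28.1 to 109.5 in the medium and 85.5 to 119.5 in the high dose-rate mice, against 35.6 in the pool. In experiment 1 it measured 54.7 to 91.0, 47.2 to 96.8 and 12.0 to 103 in the low, medium and high dose-rate mice, against 14.99 in the pool. The high dose-rate mice were thus above the low in experiment 2, by 0.87 with no overlap, and 1.00 lower on average in experiment 1, with overlap. Limma gave 1.87 ± 0.85 (log2, SE) for this difference between experiments, with an unadjusted p of 0.038 and an adjusted p of 0.771. Over all probe sets that comparison called 0.00222%, and 6.32% had an unadjusted p under 0.05. None of the 7 members was called.

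The other 3 Obsl1 probe sets gave no common picture. 1436414_at was above the pool in 9 of 18 mice, 1443510_at in 4 and 1457121_at in 9. 1443510_at had the widest range of the 3, from 9.82 to 223, and was below the pool in all 6 high dose-rate mice, as were 6.14% of all probe sets. 1457121_at was above the pool in 1 of 9 mice of experiment 2 and in 8 of 9 of experiment 1. At the low dose-rate its 3 mice lay below the pool in experiment 2, as for 22.3% of all probe sets, and above it in experiment 1, as for 26.7%. Across the 18 irradiated arrays with group means removed, the correlation between pairs of Obsl1 probe sets ran from -0.23 to 0.51. The highest value was that of 1460414_at with 1427535_s_at, which were built on the same cDNA clone. These correlations are descriptions, and the part of array noise in them was not tested.

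**Figure D4:**
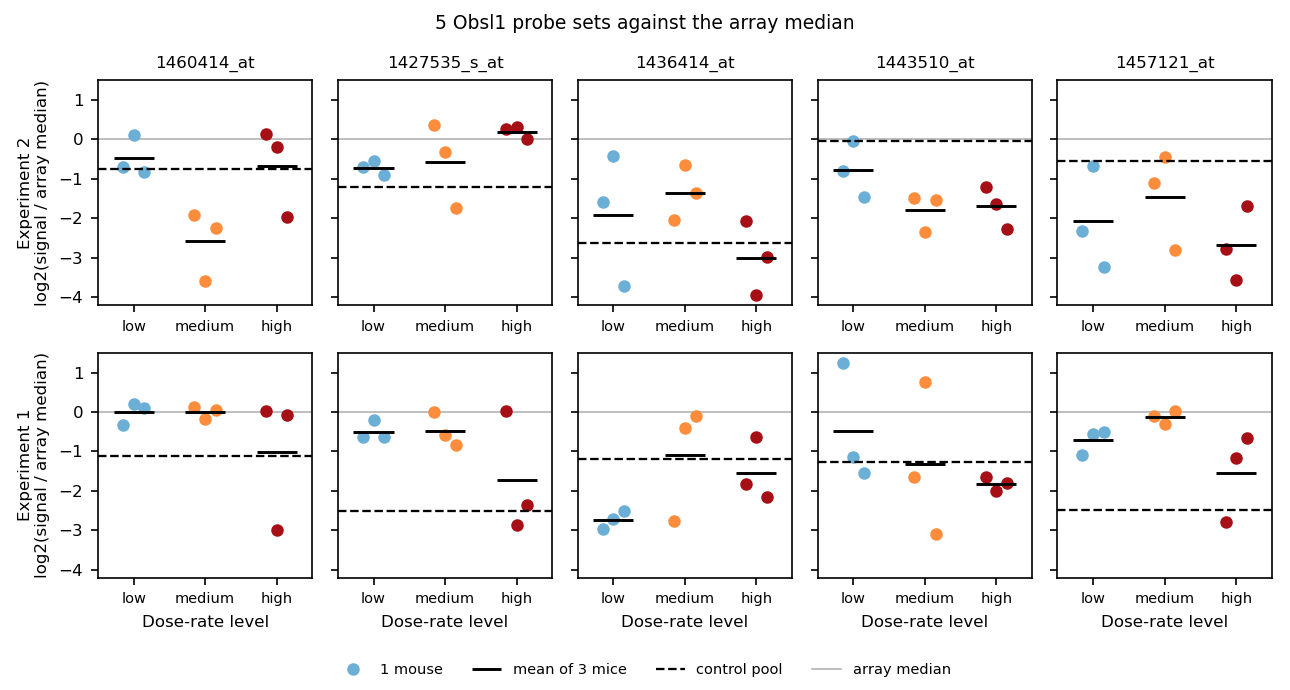
Signals of the 5 Obsl1 probe sets as log2 of signal over array median, by dose-rate level, with experiment 2 in the top row and experiment 1 in the bottom row. Points are single mice, black bars are means of 3 mice, the dashed line is the control pool and the grey line is the array median. Most points lie below the grey line, and the probe sets do not share an order of the levels.

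The limma dose-rate contrasts of the 5 Obsl1 probe sets were all short of the threshold. For 1460414_at, high minus low was -0.47 ± 0.49 and medium minus low was -0.83 ± 0.49 (log2, SE), with adjusted p-values of 0.875 and 0.843. The exact permutation test gave p = 0.045 for medium minus low, and 0.405 after adjustment over the 9 tests run. For 1457121_at, high minus medium was -1.05 ± 0.46 (log2, SE), with an unadjusted p of 0.032 and an adjusted p of 1.0. Over the 5 probe sets and 3 contrasts, the 95% intervals reached from -2.01 to 1.82, so that sizeable differences were not detectable at this precision. Between experiments, 1460414_at differed by -0.72 ± 0.38 (log2, SE, adjusted p 0.203) and 1457121_at by -0.80 ± 0.36 (log2, SE, adjusted p 0.12). Limma called 1460414_at without mouse 2 of the high dose-rate group of experiment 1 (-0.99, adjusted p 0.0338). It called 1457121_at without the pool of experiment 1 (-1.06, adjusted p 0.0323) and without that of experiment 2 (-1.06, adjusted p 0.0331).

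No correlation between members from mouse to mouse within groups passed the threshold. Over the 18 irradiated arrays, with group means removed, Ccdc8 and Cul7 had Pearson r = 0.049 (exact permutation p = 0.846, 0.846 after adjustment over 3 pairs) and Spearman rho = 0.17 (p = 0.567, adjusted 0.850). Ccdc8 and Obsl1 had r = 0.33 (exact permutation p = 0.152, adjusted 0.455) and rho = 0.40 (p = 0.123, adjusted 0.369). Cul7 and Obsl1 had r = -0.17 (exact permutation p = 0.825, adjusted 0.846) and rho = 0.028 (p = 0.943, adjusted 0.943). Without the 2 mice farthest from the median, r was 0.20, 0.21 and -0.19 for these pairs.

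The genes whose signal was most like that of Ccdc8 were sought among 11028 genes that passed the median filter. Over the 20 arrays with experiment means removed, the 5 highest Pearson correlations were those of Adcy5 (an adenylyl cyclase, r = 0.865), Nova2 (a neuronal splicing regulator, 0.827), Hebp2 (a heme-binding protein, 0.826), Armc10 (an armadillo-repeat protein, 0.792) and Mast4 (a microtubule-associated kinase, 0.790). Over the same 20 arrays Cul7 had r = -0.41 and Obsl1 r = 0.29. Adcy5, Nova2, Hebp2 and Armc10 were each above the pool in 18 of 18 mice and Mast4 in 17, against 1.17% of all probe sets above it in all 18. Nothing is read from these counts, because the 20 arrays hold the low pools on which Ccdc8 was chosen. Hebp2 measured 67.0 to 244 in the mice, against 73.7 in the pool of experiment 2 and 6.26 in the pool of experiment 1. In the pool of experiment 1, Adcy5 measured 17.4, Nova2 20.6 and Mast4 18.4. Over the 18 irradiated arrays alone, with group means removed, the correlation of these 5 genes with Ccdc8 was 0.47 to 0.73.

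**Figure D5:**
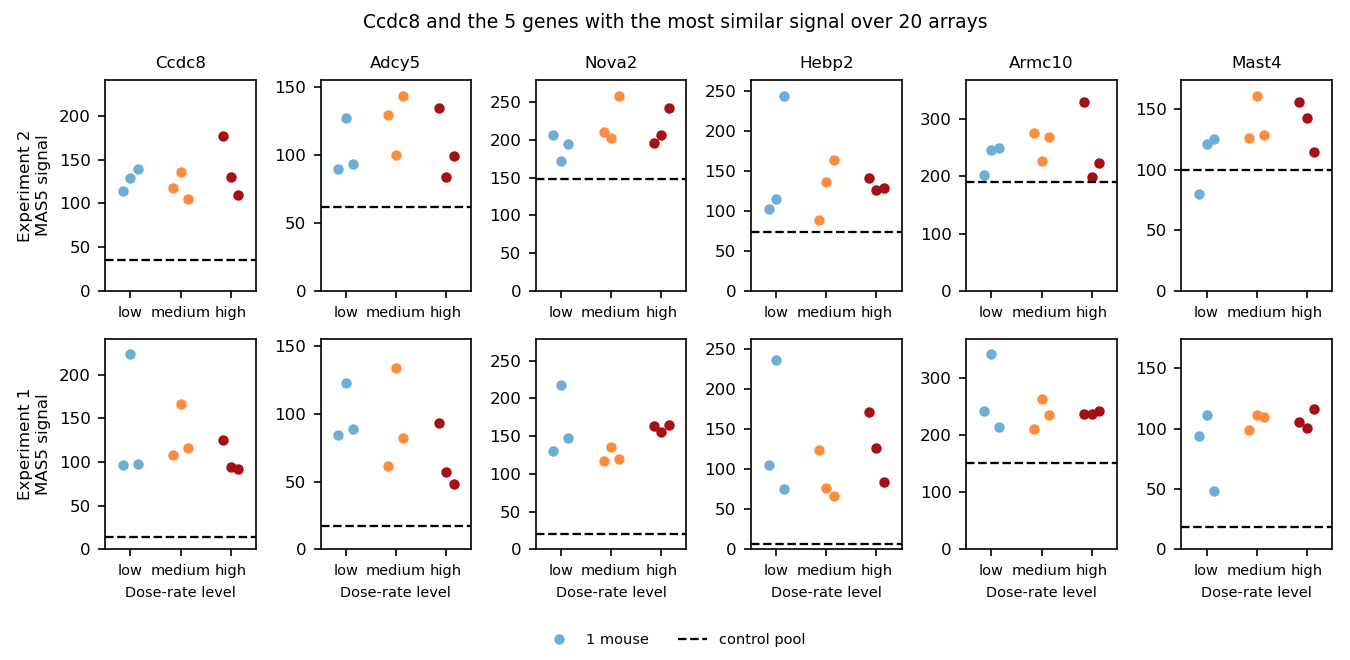
MAS5 signals (linear axes from 0, scaled per gene) of Ccdc8 and the 5 genes with the highest correlation with it over 20 arrays, by dose-rate level, with experiment 2 in the top row and experiment 1 in the bottom row. Points are single mice and the dashed line is the control pool. In experiment 1 the pool stands at 13.9 for Ccdc8 and at 6.26 for Hebp2, below all 9 mice in all 6 panels.

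A different set of genes was most like Ccdc8 among the irradiated mice alone. Over the 18 arrays with group means removed, they were Fryl (a furry-like protein, r = 0.839), Spire2 (an actin nucleator, 0.826), Sox9 (a transcription factor of bile duct cells, 0.824), Dnajb5 (an Hsp40 co-chaperone, 0.812) and Madd (a Rab exchange factor, 0.811). Without mouse 2 of the low dose-rate group of experiment 1, these were 0.77 for Fryl, 0.73 for Spire2, 0.81 for Sox9, 0.76 for Dnajb5 and 0.66 for Madd. They lay above the pool in 7 to 11 of 18 mice. For Adcy5 the correlation among the irradiated mice was 0.64, and for Nova2 it was 0.47, or 0.10 without that mouse. These values describe 18 arrays that share their normalization, and 11028 genes were ranked. The cholangiocyte markers, among them Sox9, summed to 323 to 514 in mice against 328 in the pool of experiment 2. In experiment 1 they summed to 199 to 489 in mice against 212 in the pool. Of the 4 measured, 1 had a mean above the array medians, and Sox9 is named here for its correlation with Ccdc8.

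The partners of the complex were followed next. Of the 6 listed partners of CUL7 and ankyrin proteins bound by CCDC8, 0 passed the threshold in any dose-rate contrast, and 1 was higher and 0 lower in experiment 2. Between experiments, 20.6% of all probe sets were called, and 42.6% of the 11217 probe sets left by the median filter with 1 per gene symbol, tested alone, and the list counts here and below are read against both. The median of the list for high minus low was -0.070, against 0.0020 over all probe sets. The 1 called gene was Fbxw8, the F-box protein of the CUL7 ligase, higher in experiment 2 by 0.85 ± 0.10 (log2, SE, limma adjusted p 7.45e-07). Its signal was 332 to 1165 in the mice, against 1001 in the pool of experiment 2 and 536 in the pool of experiment 1. Rfxank, an ankyrin-repeat protein of the MHC class II regulatory complex, measured 159.6 to 354 in the mice. Its pools measured 134 and 155 in experiments 2 and 1. It was above the pool in 18 of 18 mice, as were 1.17% of all probe sets, and was picked after its values were seen. Ankra2, the related ankyrin protein, measured 229 to 426 in the mice against 308 and 300.5 in the pools of experiments 2 and 1.

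Among the other partners, Skp1, the adaptor shared by cullin ligases, averaged 12006 and differed between high and low by -0.068 ± 0.095 (log2, SE). Cul9, the cullin closest to CUL7, averaged 113 and differed by -0.062 ± 0.26 (log2, SE). Rbx1, the RING subunit, was measured here on a dim probe set with a mean of 68.0, since its other probe sets also carry the symbol of a pseudogene. Its high minus low difference was 1.04 ± 0.58 (log2, SE) with an adjusted p of 0.704.

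The listed substrates and effectors of the ligase gave no call between dose-rates. Of 6 measured of 7 listed, 0 passed in any dose-rate contrast and 1 was higher and 0 lower in experiment 2. That gene was Gorasp1, the Golgi stacking protein, at 0.75 ± 0.16 (log2, SE, limma adjusted p 0.000799), named after its value was seen. The smallest dose-rate p in the list belonged to Kcnh1, a potassium channel, with high minus low at -1.05 ± 0.47 (log2, SE, adjusted p 0.582) at a mean signal of 61.8. Irs1, the insulin receptor substrate, averaged 1693 and had high minus low at -0.10 ± 0.095 (log2, SE). Birc5, the survivin gene, was dim at 45.2.

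Of the 8 other cullins, 0 passed in any dose-rate contrast, and 1 was higher and 2 were lower in experiment 2. Anapc2, the cullin of the anaphase-promoting complex, was higher by 0.27 ± 0.078 (log2, SE, limma adjusted p 0.012). Cul4a differed by -0.32 ± 0.075 (log2, SE, adjusted p 0.0024) and Cul3 by -0.20 ± 0.053 (log2, SE, adjusted p 0.00711). Cul3 is the scaffold of BTB-protein ligases, and its high minus low difference of -0.16 ± 0.069 (log2, SE) did not pass (adjusted p 0.572).

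Cullins are switched on by the ubiquitin-like protein NEDD8 and switched off by the COP9 signalosome. Of 23 measured genes of this machinery, 0 passed in any dose-rate contrast, and 3 were higher and 6 lower in experiment 2. These 9 genes are 39.1% of the list, 21 of whose 23 genes lie over the median filter, a share near that 42.6%. The smallest dose-rate p was that of Dcun1d1, a NEDD8 ligase co-factor, with medium minus low at -0.32 (unadjusted p 0.00307). Its signal was 586 to 1417 in the mice, against 976 and 1475 in the pools of experiments 2 and 1. Of 18 mice, 0 lay above their pool, and 0.755% of all probe sets were below it in all 18. Dcun1d3, of the same family, had high minus low at -0.38 ± 0.13 (log2, SE, adjusted p 0.388). Ube2f, a NEDD8-conjugating enzyme, averaged 1869.9 and had medium minus low at -0.21 ± 0.081 (log2, SE, unadjusted p 0.017, adjusted p 0.69985) and high minus low at -0.14 ± 0.081.

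The growth hormone and IGF axis is listed because human 3M syndrome restricts growth. Of 21 genes measured, 0 passed in any dose-rate contrast, and 4 were higher and 3 lower in experiment 2. Igfbp1, an IGF-binding protein made by hepatocytes, had high minus low at 0.99 ± 0.23 (log2, SE, unadjusted p 0.000218, adjusted p 0.144). Socs2, a feedback inhibitor of growth hormone signalling, had -0.88 ± 0.31 (log2, SE, adjusted p 0.419). Igfbp2 had -0.27 ± 0.19 and Igf1 -0.036 ± 0.088 (log2, SE) in the same contrast.

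CCDC8 is grouped with the PNMA family of retrotransposon-derived proteins, and OBSL1 with the obscurin and M-band proteins of muscle. Their signals in liver were low. Of 8 measured PNMA genes and 5 measured M-band genes, 0 passed the median filter and 0 were called in any contrast between dose-rates or experiments. Means ran from 17.1 (Pnma3) to 70.6 (Pnmal1) in the PNMA list. The smallest dose-rate p in both lists was that of Speg, a muscle kinase, with medium minus low at 1.58 (unadjusted p 0.00256) at a mean signal of 33.6. For high against low, 7.91% of all probe sets had an unadjusted limma p under 0.05. Such a p was held by 0 partners, 1 substrate or effector, 1 other cullin and 3 of the NEDD8 machinery. It was also held by 2 of the growth axis and by 0 in the PNMA and M-band lists. For medium against low, the share over all probe sets was 6.34%. Such a p was held by 0 partners, 0 substrates or effectors, 1 other cullin and 4 of the NEDD8 machinery. It was also held by 2 of the growth axis, 1 of the PNMA list and 2 of the M-band list. For high against medium, where the share was 4.44%, 1 gene of the growth axis had such a p and 0 of the other lists.

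The genes beside the members on the chromosomes lay on both sides of their pools. The 3 nearest protein-coding genes on each side of Ccdc8 include Pnmal2 and Pnmal1 before it and Ppp5c, Hif3a and Psg16 after it. Ppp5c, a protein phosphatase, was bright, at 805 to 2183 in the mice against 2219.7 and 1323 in the pools of experiments 2 and 1, and lay above its pool in 1 of 18 mice. It was higher in experiment 2 by 0.98 ± 0.089 (log2, SE, limma adjusted p 1.06e-08). Pnmal2, Pnmal1, Hif3a and Psg16 averaged between 26.5 and 70.6, and were above the pool in 4, 10, 10 and 7 of 18 mice in that order. None of the neighbours of the 3 members was called for high against low. Beside Cul7, Klc4, a kinesin light chain, was higher in experiment 2 by 0.60 ± 0.081 and Klhdc3 by 0.27 ± 0.060 (log2, SE), with limma adjusted p-values of 3.31e-06 and 0.00131. Beside Obsl1, Stk11ip was higher in experiment 2 by 1.60 ± 0.35 (log2, SE, adjusted p 0.00146). It was dim, with a mean of 59.4 and a range of 3.63 to 140 in the mice. Klc4, Klhdc3 and Stk11ip were named for this call, and the other neighbours of Cul7 and Obsl1 were not called between experiments. Between experiments, 20.6% of all probe sets were called, and 42.6% of those left by the median filter.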

How the data were processed

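Liver RNA of 18 irradiated mice and 2 control pools was measured on 20 arrays, grouped by the labels' titles and descriptions. The authors deposited 1 table of linear MAS5 signal intensity, per the submitters' processing notes, which give no version. On each array the mean came to 500.0 once 2% was left out at both ends, array medians were 81.3 to 104.8, and 0 columns belonged to no sample. Gene symbols came from GEO's platform annotation.

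The 64 array control probe sets were left out, and the other 45037 were fitted with limma 3.58.1 (R 4.3.3) with a variance trend on log2(signal + 7.11), with dose level and experiment as terms. P-values were two-sided and adjusted by Benjamini-Hochberg over all probe sets, with 0.05 as the threshold. The fit was tested on simulated data. Exact permutations used SciPy 1.17.1 in Python 3.11.15. The members and lists were chosen with earlier results of these data known, so contrasts with the control pools carry no test. Per list, the text names up to 3 genes with the smallest p in any dose-rate contrast. It also names fixed partners (Fbxw8, Rbx1, Skp1, Cul9, Igf1, Igfbp2) and the 5 genes most correlated with Ccdc8. Of the 3 nearest protein-coding genes on each side of a member, it names those measured beside Ccdc8. Beside Cul7 and Obsl1 it names only those called between experiments, picked after their values were seen. Other genes named for a call between experiments, Rfxank, Ankra2 and Dcun1d1 beside the pools included, were picked after their values were seen.

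Alternatives were other pseudocounts, a filter on low signals, no variance trend, median-centred and quantile-normalized arrays, irradiated arrays alone, a replicate block, each experiment alone and leaving out each array. Promoter sequences were taken from RefSeq tables of GRCm38.p6. Probe sets with several symbols were not used for named genes. Labels do not say whether mice of 1 group shared a cage or a litter.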

Additional observations from a re-analysis of the deposited data

Results flagged for a closer look

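Among the 7 member probe sets at 3 dose-rate levels, a pair of Obsl1 results was opposite between the experiments in every mouse. For probe set 1460414_at at the medium dose-rate, the difference from the pool averaged -1.30 in experiment 2 and 1.07 in experiment 1 (log2, 3 mice each), with all 3 mice below the pool in experiment 2 and all 3 above it in experiment 1. For probe set 1457121_at at the low dose-rate, it averaged -1.13 in experiment 2 and 1.53 in experiment 1, again with 3 of 3 mice on each side. All 3 medium dose-rate mice lay below the pool in experiment 2 for 22.7% of all probe sets, and above it in experiment 1 for 26.8%. For the low dose-rate these shares were 22.3% and 26.7%. Both probe sets were dim, and the pools of 1457121_at measured 55.5 in experiment 2 and 15.2 in experiment 1. Whether these Obsl1 results differ between the experiments was not tested, because each control was 1 pool. Groups of 3 mice were too small for a search for single outlying mice.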

How the results depend on the processing

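All member signals rested on 3 mice a group and 1 pool an experiment, and the 5 Obsl1 probe sets and the Ccdc8 pools lay under most array medians, where MAS5 signals are noisy. Of the values recomputed under an alternative, 1711 were counted as kept and 45 as turned in direction. Each of the 45 was a difference or correlation that had not passed the threshold. A further 4 newly passed the threshold and 3 no longer passed it, all between experiments. The other 33 were counts, or a difference from the pool, that changed too much to be kept. For tests and correlations, kept means the same direction and side of the threshold. For a difference from the pool, it means a change smaller than the SD between mice, so a turned sign could count as kept. That of Obsl1 1460414_at at the medium dose-rate (-0.11) ran from -1.30 to 1.07 with an array left out. A count was kept if it changed little. No member was called between dose-rates under any alternative; the smallest adjusted p was 0.532 with an array left out and 0.405 otherwise. The cause of the changes below was not tested, other than where fewer probe sets or samples entered.

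The replicate numbers were not taken to pair the mice, since not every same-numbered pair had a correlation over 0.1. These ran from -0.15 to 0.32 with a median of 0.056 and 5 of 18 over 0.1, against a median of -0.026 and 5 of 36 for different numbers. In experiment 1, 8 of 9 same-numbered pairs were positive (median 0.097), against 6 of 18 with different numbers (median -0.052). In experiment 2, 5 of 9 and 10 of 18 were positive. Pairing in experiment 1 is thus not excluded. With a replicate block, high minus low was -0.11 for Ccdc8 and -0.042 for Cul7, and the count over all probe sets was 8 against 2 without it; the block changed no call of a member. That count was 0 after the filter at the median, 1 with no variance trend, 4 with median-centred arrays, 0 in experiment 1 alone and 1 to 56 with an array left out, with 56 without mouse 3 of the low dose-rate group of experiment 2 and 34 without mouse 3 of that group of experiment 1. For medium against low it was 0 to 1 with an array left out.

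In experiment 2 alone, high minus low was 0.093 for Ccdc8, 0.87 for Obsl1 1427535_s_at and -0.77 for 1436414_at. High minus medium was 0.18 for Ccdc8, -0.20 for Cul7, 0.68 for 1427535_s_at and 0.083 for 1443510_at. In experiment 1 alone, high minus low was 0.17 for Cul7, medium minus low -0.033 for 1427535_s_at and high minus medium -0.80 for 1460414_at. A pseudocount at the 25th percentile gave 0.027 for high minus low of 1427535_s_at and 1.55 for Ccdc8, high dose-rate minus pool.

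With each array left out in turn, high minus low ran from -0.20 to 0.079 for Ccdc8, -0.13 to 0.022 for Cul7, -0.28 to 0.26 for 1427535_s_at and -0.17 to 0.38 for 1436414_at. Medium minus low ran from -0.15 to 0.14 for Ccdc8 and -0.085 to 0.34 for 1427535_s_at. High minus medium ran from -0.16 to 0.049 for Ccdc8, -0.014 to 0.14 for Cul7, -0.40 to 0.18 for 1427535_s_at and -0.49 to 0.21 for 1443510_at.

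Between experiments, quantile normalization gave 0.33 for Cul7 and 0 called members, and the 18 irradiated arrays alone gave 2 (Cul7 and Obsl1 1457121_at). With an array left out, Cul7 ran from 0.34 to 0.44, 1460414_at from -0.99 to -0.55, 1443510_at from -0.33 to 0.089 and the called members from 0 to 2. The filter at the median, which tests 11217 probe sets, left 4777 calls in all against 9257. The difference between experiments in high against low called 1 probe set in all, 0 after the filter or with median-centred arrays, 4 with no variance trend and 1 to 3 with an array left out. In that contrast, 1460414_at ran from -0.064 to 1.33, 1443510_at from -0.31 to 1.02 and 1457121_at from -0.13 to 0.81. The correlation of Ccdc8 and Cul7 was -0.039 with median-centred arrays.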
